A study of Mus musculus with 4 samples.

Results

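Receptors of the tumour necrosis factor (TNF) superfamily and their ligands were examined in CD4 T cells of sanroque and wild type mice. The set held 10 genes of 12394 that have a probe set of their own on the array: the receptors Tnfrsf4, Tnfrsf9, Tnfrsf18, Cd27, Tnfrsf1a, Tnfrsf1b and Fas, and the ligands Fasl, Cd40lg and Tnfsf8. Every probe set annotated to one of these genes alone was taken, which gave 14, and no probe set was shared between one of them and another gene. Of the 14, 13 had a mean signal of at least 21.3 over the arrays and entered the test across 13579 probe sets; 1 of the 3 Tnfrsf9 probe sets lay below that level.

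RNA was measured on 4 Affymetrix MOE430A arrays, 2 of CD4 cells from san/san mice and 2 of CD4 cells from wild type (+/+) mice. The san/san mice are homozygous for sanroque, a recessive variant found in a pedigree that was bred from C57BL/6 males treated with the mutagen ENU and selected for antinuclear autoantibodies; the variant lies in Rc3h1, the gene of the RNA-binding protein Roquin-1. The sources used here give neither age nor sex of the mice, nor whether animals were pooled. They also do not say that both arrays of a genotype came from separate mice, so a p-value here reflects array-to-array spread that may be technical. The experiment information of both number 1 arrays speaks of sorted T cells. That of +/+ array 2 has the unexplained letters CBA, which +/+ array 1 and the san/san arrays lack. Whether they mean a difference of strain within the +/+ group is not stated. Any difference of strain between the genotypes cannot be told apart from the variant. Same-numbered arrays shared their hybridisation and scan day, so each difference was also read within pair 1 and within pair 2.

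Members of this receptor family are membrane proteins that trimeric ligands on neighbouring cells bring together. Costimulatory members such as OX40, 4-1BB, GITR and CD27 bind TRAF adaptors and feed into NF-kB signalling, which prolongs the division and survival of activated T cells, whereas death receptors such as Fas recruit the adaptor FADD and caspase 8. CD40 ligand on helper T cells is the signal that B cells need for germinal centres. Roquin-1 is known to bind the messenger RNAs of the costimulators ICOS and OX40 in mouse T cells and to promote their decay.

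The arrays carried the defining genes of CD4 T cells. The summed signal of 6 measured markers (Cd4, Cd3d, Cd3e, Cd3g, Cd5 and Cd28) was 7389.4 and 8078.9 on the san/san arrays and 7960.8 and 8630.9 on the +/+ arrays, and none of the 6 passed the test. In RNA from a whole cell population, a change in the number of cells of a type and a change of RNA per cell cannot be told apart. Levels of different probe sets are not comparable on such arrays, so arrays were compared only within a probe set or within the sum of a fixed set of them. The fit was limma on log2(signal + 6), two-sided, and a probe set passed where its Benjamini-Hochberg adjusted p over the 13579 was under 0.05. Precision is limited throughout by having 2 arrays per genotype.

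Tnfrsf1b was the 1 member that rose in sanroque, and it did so by 1 of its 2 probe sets. Tnfsf8 and 2 of the 3 Tnfrsf9 probe sets were higher on both san/san arrays than on both +/+ arrays but did not pass; they passed in a fit with the day as a block, and Tnfrsf9 1460469_at also without +/+ array 1. Tnfrsf4, Tnfrsf18, Tnfrsf1a, Cd27, Fas, Fasl and Cd40lg did not pass in any of the 13 fits run. In all, 1 of 13 member probe sets (7.69%) was called, and it was higher, against 1.06% of all probe sets called in either direction and 0.670% called higher. With the replicate block, which leaves 1 residual degree of freedom per probe set, 4 of 13 (30.8%) were called, all higher, against 6.27% of all probe sets in either direction and 3.59% higher. Of the 13, Tnfrsf9 1428034_a_at and Cd40lg reached the filter level only through the genotype in which they were higher. Among the other 11, 1 was called and 3 with the block. The median log2 difference was 0.128 over the 13 and over the 11, against 0.0147 over all probe sets tested.

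**Figure D1:**
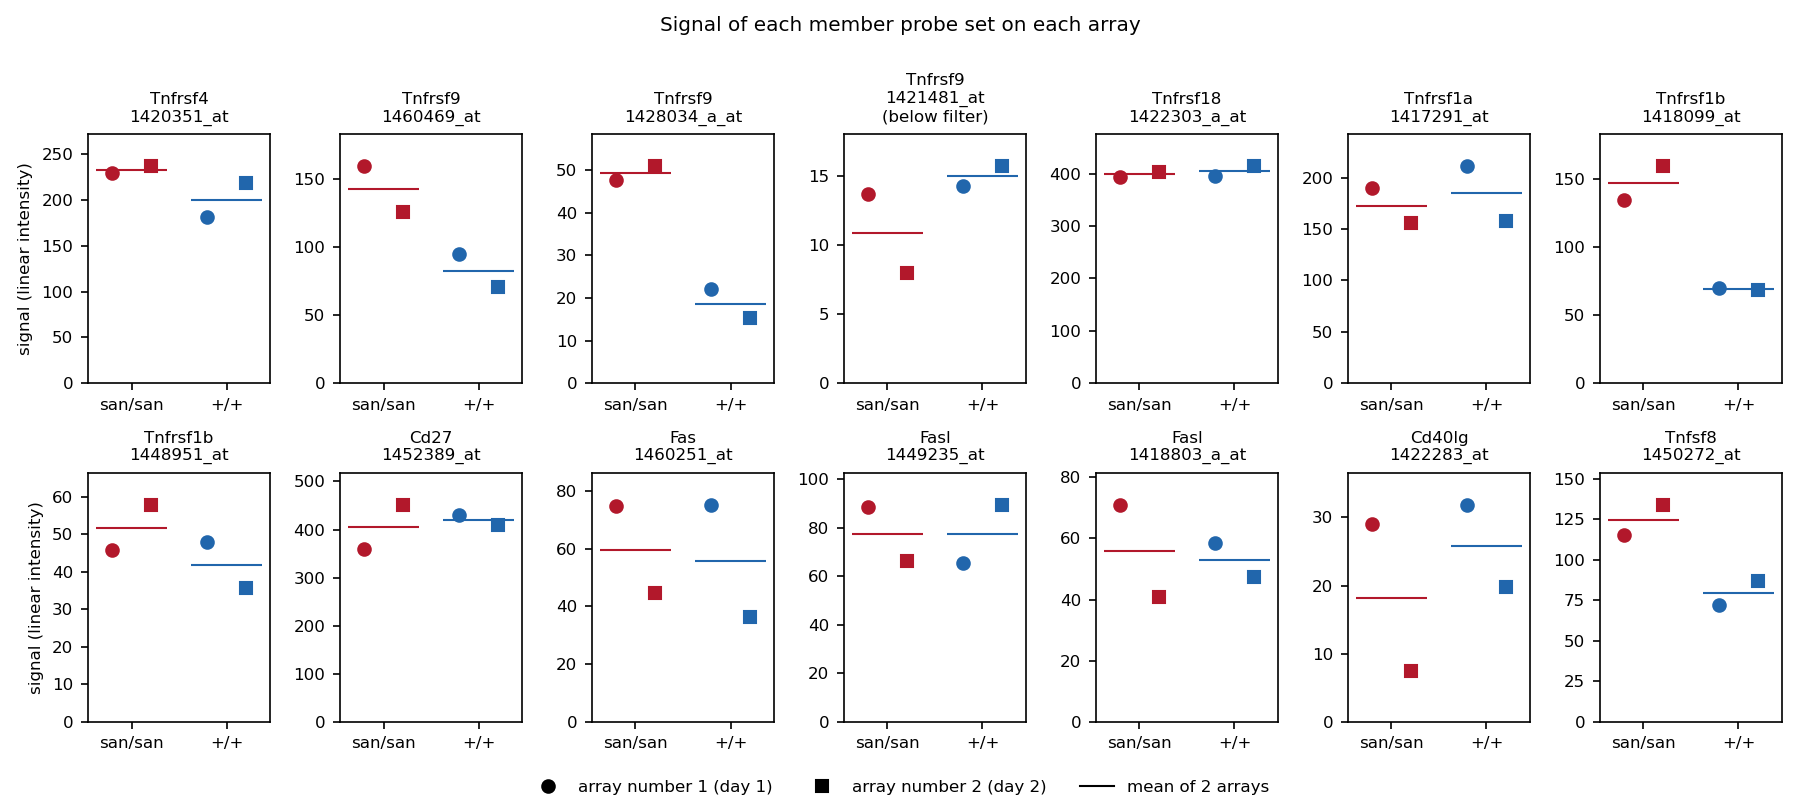
Signal (linear intensity, y axes from 0) of all 14 member probe sets on the san/san arrays (red, left) and the +/+ arrays (blue, right), with circles for number 1 arrays, squares for number 2 arrays and lines for the mean of 2 arrays. Both san/san arrays lie above both +/+ arrays for Tnfrsf1b 1418099_at, for Tnfrsf9 1460469_at and 1428034_a_at, for Tnfsf8 and, by a small margin, for Tnfrsf4.

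Tnfrsf1b encodes TNFR2, the TNF receptor without a death domain, which responds best to membrane-bound TNF and is abundant on regulatory and activated T cells and on myeloid cells. Its probe set 1418099_at had a signal of 134.7 and 159.6 on the san/san arrays, against 70.4 and 68.3 on the +/+ arrays. Both san/san arrays were thus well above both +/+ arrays, and the means were 147.1 ± 17.6 in san/san and 69.4 ± 1.48 in +/+ (SD, n = 2 each), a ratio of 2.12. The log2 difference was 1.02 (standard error 0.203, limma adjusted p = 0.0434; 0.000322 with the replicate block), with 0.88 within pair 1 and 1.16 within pair 2. The call ended under quantile normalization (adjusted p = 0.0623), with each array centred on its median (0.106), without the filter (0.146) and without the variance trend (0.198). It also ended without san/san array 1 (0.0601), san/san array 2 (0.222) or +/+ array 2 (0.0719), while the log2 difference stayed between 0.90 and 1.14 with any single array left out.

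The second probe set of Tnfrsf1b, 1448951_at, which the annotation assigns to the same GenBank record, did not pass. It had a signal of 45.8 and 57.8 on the san/san arrays, against 48.1 and 35.7 on the +/+ arrays, so the genotypes overlapped. Its log2 difference was 0.28 (95% interval -0.35 to 0.91; limma adjusted p = 0.858), with -0.06 in pair 1 and 0.61 in pair 2. Whether both probe sets differ in their response was not tested.

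Tnfrsf9 encodes 4-1BB (CD137), a costimulatory receptor that T cells express after antigen recognition and that regulatory T cells also carry. Probe set 1460469_at had a signal of 159.5 and 126.1 on the san/san arrays, against 94.8 and 70.7 on the +/+ arrays. The genotypes did not overlap, and the 2 days gave nearly the same log2 difference, 0.72 in pair 1 and 0.78 in pair 2. The mean log2 difference of 0.75 (95% interval 0.26 to 1.24) did not pass over all probe sets (limma adjusted p = 0.213) but did with the replicate block (0.00678) and without +/+ array 1 (0.0409). Probe set 1428034_a_at had 47.6 and 50.9 on the san/san arrays, against 22.1 and 15.2 on the +/+ arrays. Its +/+ mean of 18.6 lies below the filter level, so it entered the test through its san/san signal, and its values are given as a description. The log2 difference was 1.18 (95% interval 0.40 to 1.96), with 0.93 in pair 1 and 1.42 in pair 2, and it did not pass (limma adjusted p = 0.216, 0.0129 with the replicate block). The probe set below the filter, 1421481_at, had 13.7 and 8.0 on the san/san arrays and 14.3 and 15.7 on the +/+ arrays, values near the low end of the table, and was not tested (log2 difference -0.34).

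Tnfsf8 encodes CD30 ligand, which activated T cells present to cells that carry CD30. Its probe set had a signal of 115.1 and 133.6 on the san/san arrays, against 72.1 and 87.1 on the +/+ arrays. Both san/san arrays were above both +/+ arrays, with means of 124.4 ± 13.1 in san/san and 79.6 ± 10.6 in +/+ (SD, n = 2 each). The log2 difference of 0.61 (95% interval 0.15 to 1.07) was 0.63 in pair 1 and 0.58 in pair 2; it did not pass over all probe sets (limma adjusted p = 0.324) but did with the replicate block (0.0379). Its receptor gene Tnfrsf8, named after its values were seen, was dim, with 35.1 and 15.7 on the san/san arrays and 22.7 and 15.0 on the +/+ arrays.

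**Figure D2:**
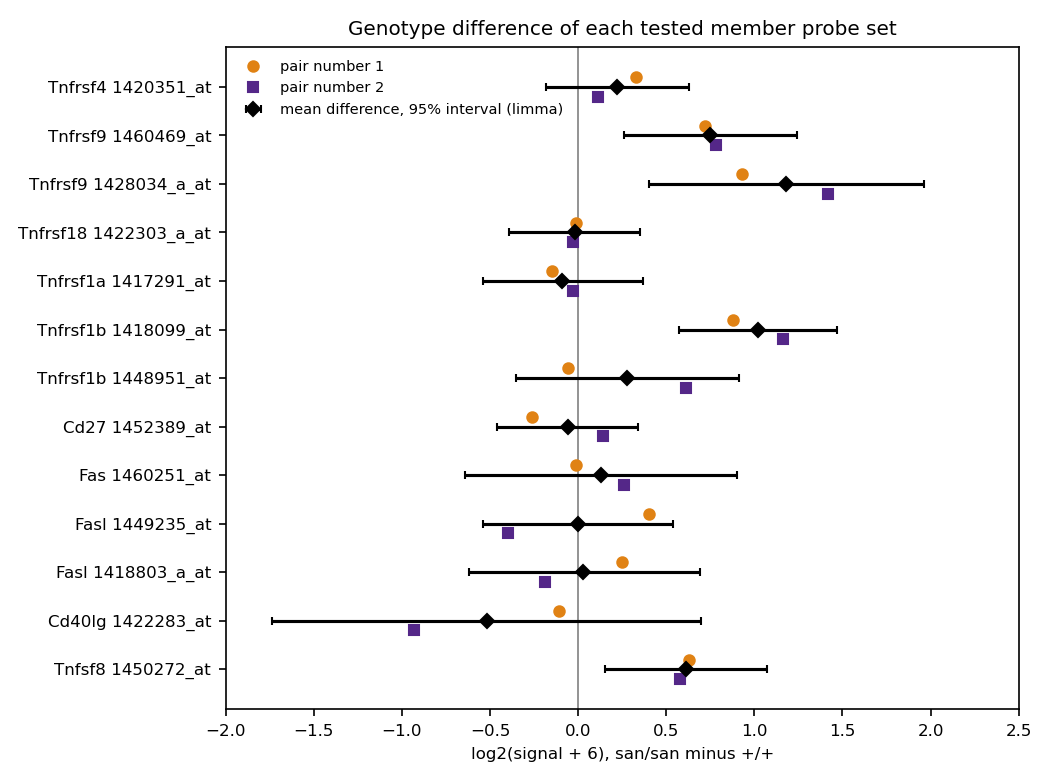
Difference of log2(signal + 6), san/san minus +/+, for the 13 member probe sets tested: black diamonds with bars are the mean difference and its 95% interval from limma, orange circles the difference within pair 1 and purple squares that within pair 2. Tnfrsf1b 1418099_at (1.02), Tnfsf8 (0.61) and Tnfrsf9 1460469_at (0.75) and 1428034_a_at (1.18) lie above 0 in both pairs with intervals that do not include 0, before adjustment for the number of probe sets tested; the last of these entered the test through its san/san signal.

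The promoter windows of the 3 genes with such probe sets are shown because their signals were higher together. They come from RefSeq (GRCm38.p6) and run from 250 bases before to 50 bases after an annotated start, and 9 of the 10 genes matched an entry, with 10 windows in all; Cd40lg did not match. Each window was searched on both strands for the kappa B consensus motif, to which NF-kB subunits bind, and for the AP-1 site TGANTCA, to which Fos and Jun proteins bind; matches are in capitals. Tnfrsf9 has 2 annotated starts. The first window lies at chr4:150919905-150920204 (plus strand), the second at chr4:150927749-150928048 (plus strand), that of Tnfrsf1b at chr4:145246821-145247120 (minus strand) and that of Tnfsf8 at chr4:63861235-63861534 (minus strand).
Tnfrsf9, first start: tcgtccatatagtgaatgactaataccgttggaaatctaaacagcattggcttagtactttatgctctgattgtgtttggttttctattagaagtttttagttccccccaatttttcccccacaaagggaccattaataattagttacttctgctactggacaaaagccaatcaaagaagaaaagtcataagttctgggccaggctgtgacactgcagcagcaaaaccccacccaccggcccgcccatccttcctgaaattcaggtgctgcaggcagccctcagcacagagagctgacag
Tnfrsf9, second start: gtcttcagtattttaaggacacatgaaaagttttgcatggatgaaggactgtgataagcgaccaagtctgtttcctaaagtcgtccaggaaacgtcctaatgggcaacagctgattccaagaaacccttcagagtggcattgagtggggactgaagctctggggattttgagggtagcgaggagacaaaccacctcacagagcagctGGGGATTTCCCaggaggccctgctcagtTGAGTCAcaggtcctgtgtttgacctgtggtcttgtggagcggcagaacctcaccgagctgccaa
Tnfrsf1b: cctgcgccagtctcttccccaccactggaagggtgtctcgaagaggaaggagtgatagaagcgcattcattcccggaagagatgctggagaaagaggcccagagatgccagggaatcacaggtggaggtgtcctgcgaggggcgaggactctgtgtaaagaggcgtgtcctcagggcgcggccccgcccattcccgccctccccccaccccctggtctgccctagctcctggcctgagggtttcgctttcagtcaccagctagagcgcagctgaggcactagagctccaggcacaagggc
Tnfsf8: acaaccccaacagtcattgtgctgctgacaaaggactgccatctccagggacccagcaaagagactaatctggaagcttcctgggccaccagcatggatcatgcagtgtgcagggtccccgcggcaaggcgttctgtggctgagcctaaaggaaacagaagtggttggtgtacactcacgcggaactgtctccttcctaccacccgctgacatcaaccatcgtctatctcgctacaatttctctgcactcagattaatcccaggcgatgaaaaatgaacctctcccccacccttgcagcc
The second Tnfrsf9 window held 2 overlapping kappa B matches and 1 AP-1 match, and the other 3 windows shown held neither motif. Among the remaining windows the only match was 1 AP-1 site in that of Fas. Of all 32851 windows in the table, 5.80% held a kappa B match and 7.81% an AP-1 match, and the 10 member windows held them in 1 and 2 cases. A match is a description of the letters and not evidence of binding.

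The other costimulatory receptors did not pass the test. Tnfrsf4 encodes OX40, the Roquin-1 target among the receptors, and had a signal of 229.0 and 236.6 on the san/san arrays, against 181.0 and 218.1 on the +/+ arrays. The san/san arrays were both above the +/+ arrays, but the log2 difference was 0.22 (95% interval -0.18 to 0.63; limma adjusted p = 0.788), with 0.33 in pair 1 and 0.11 in pair 2. Tnfrsf18 encodes GITR, which regulatory T cells express at rest and other T cells after activation; it had 393.9 and 403.9 on the san/san arrays, against 395.8 and 413.9 on the +/+ arrays. These 4 values lie close together, and the log2 difference was -0.02 (95% interval -0.39 to 0.35; limma adjusted p = 0.985). Tnfrsf4 and Tnfrsf18 are neighbours on chromosome 4, with 0 protein-coding genes between them in the RefSeq table. Cd27, a costimulatory receptor that naive T cells already carry, had 359.7 and 450.8 on the san/san arrays, against 431.2 and 408.6 on the +/+ arrays. The +/+ values fell between those of the san/san arrays, and the pairs pointed in opposite directions, with -0.26 in pair 1 and 0.14 in pair 2 (mean log2 difference -0.06, 95% interval -0.46 to 0.34; limma adjusted p = 0.967).

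Tnfrsf1a, the gene of the death-domain receptor TNFR1 that most cell types express, had a signal of 189.8 and 155.4 on the san/san arrays, against 211.0 and 158.3 on the +/+ arrays. The genotypes overlapped, and the log2 difference was -0.09 (95% interval -0.54 to 0.37; limma adjusted p = 0.953). The 95% interval of Tnfrsf1b 1418099_at, by comparison, was 0.57 to 1.47; whether the 2 TNF receptor genes differ in their response was not tested.

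Fas, the death receptor that limits activated T cells, had a signal of 74.8 and 44.6 on the san/san arrays, against 75.1 and 36.2 on the +/+ arrays. Each genotype had 1 high and 1 low value, and the high one was the number 1 array in both. The log2 difference between genotypes was 0.13 (95% interval -0.64 to 0.90; limma adjusted p = 0.962). Array 1 exceeded array 2 by 0.68 on the log2 scale in san/san and by 0.94 in +/+, more than the genotypes differed in either pair (-0.01 and 0.26). Fasl, the ligand of Fas, has 2 probe sets. Probe set 1449235_at had 88.5 and 66.2 on the san/san arrays and 65.4 and 89.4 on the +/+ arrays, and probe set 1418803_a_at had 70.9 and 40.8 on the san/san arrays and 58.6 and 47.3 on the +/+ arrays. In both probe sets san/san was above +/+ in pair 1 (0.40 and 0.25) and below it in pair 2 (-0.40 and -0.19), so that the mean log2 differences were 0.00 (95% interval -0.54 to 0.54) and 0.03 (-0.62 to 0.69). Fasl lies on chromosome 1, as does Rc3h1, with 10 protein-coding genes between them in the RefSeq table.

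Cd40lg, the gene of CD40 ligand, was dim. Its probe set had a signal of 29.0 and 7.5 on the san/san arrays, against 31.8 and 19.8 on the +/+ arrays, so the genotypes overlapped and both number 2 arrays were lower. The log2 difference was -0.52 with a wide interval (-1.74 to 0.70; limma adjusted p = 0.864). Its +/+ mean of 25.8 was above the filter level and its san/san mean of 18.2 below it.

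Over the 13 probe sets, array 1 was above array 2 in both genotypes for 5 (38.5%) and below it in both for 3 (23.1%), against 37.2% and 27.1% of all probe sets tested. The 5 were those of Tnfrsf1a, Fas, Cd40lg, Tnfrsf9 1460469_at and Fasl 1418803_a_at, and the 3 were Tnfrsf4, Tnfrsf18 and Tnfsf8. San/san was above +/+ in both pairs for 5 (38.5%), against 33.1% of all probe sets, and below it in both for 3 (23.1%), against 28.8%. Both san/san arrays were above both +/+ arrays for 5 (38.5%), against 21.0% of all probe sets, and below both for 0, against 17.7%; over all probe sets the genotypes did not overlap in 38.7%. Without the 2 probe sets that reached the filter level through 1 genotype, 4 of 11 (36.4%) were above both +/+ arrays. The 5 above both +/+ arrays were those of Tnfrsf4, Tnfsf8, Tnfrsf1b 1418099_at and the 2 tested Tnfrsf9 probe sets. Their genes lie on chromosome 4, as do 5 of the 10 members. Of the other member probe sets there, those of Tnfrsf18 and Tnfrsf1b 1448951_at overlapped. The untested Tnfrsf9 1421481_at was lower on both san/san arrays. The share of probe sets without overlap among all those of chromosome 4 was not computed.

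**Figure D3:**
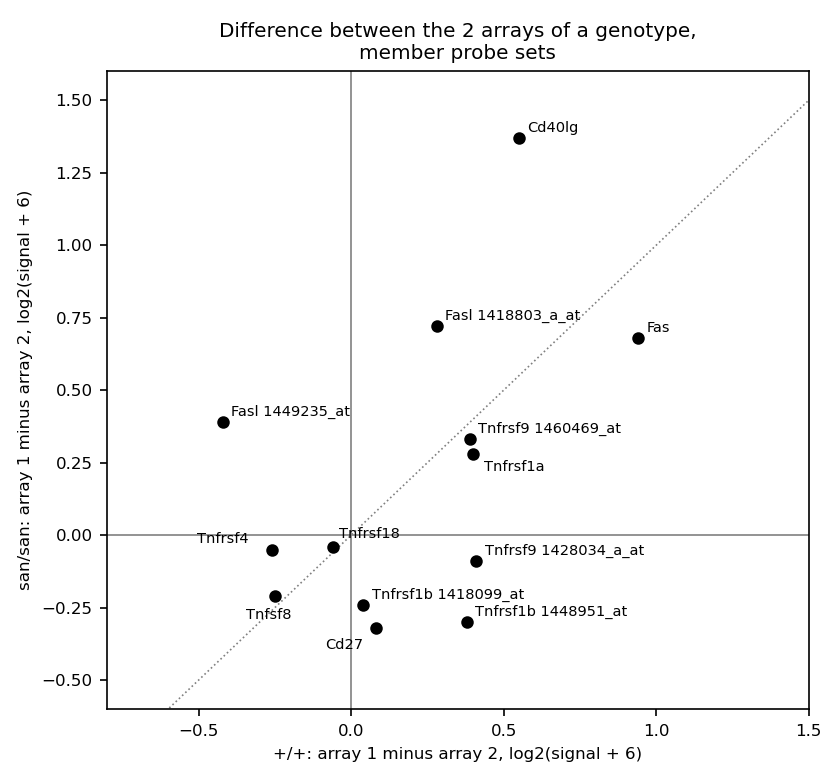
Array 1 minus array 2 on the log2(signal + 6) scale for the 13 member probe sets tested, in san/san (y axis) and in +/+ (x axis); the dotted line marks equal differences. Fas (0.68 and 0.94) and Cd40lg (1.37 and 0.55) were higher on the number 1 array of both genotypes, as was Fasl 1418803_a_at (0.72 and 0.28), while Fasl 1449235_at was higher on array 1 in san/san (0.39) and lower on it in +/+ (-0.42).

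The rest of the family was read from 5 lists, each gene by its brightest probe set that passed the filter. Of 21 other receptors, 9 were measured, 9 lay below the filter and 3 had no probe set of their own. None passed (0 at an adjusted p of 0.05, 2 at an unadjusted p under 0.05). With the replicate block 1 passed (11.1%, against 6.27% of all probe sets tested). A positive log2 difference was found for 7 of 9 (77.8%), against 52.1% of all probe sets tested. The median was 0.283, against 0.0147 over all. Tnfrsf8, whose difference is that median, entered the test through its san/san signal, with means of 25.4 in san/san and 18.8 in +/+. Tnfrsf25 encodes DR3, a costimulatory receptor with a death domain. It had 223.0 and 272.7 on the san/san arrays and 151.1 and 166.1 on the +/+ arrays (log2 difference 0.62, limma adjusted p = 0.225, 0.0142 with the replicate block). Tnfrsf13b, the gene of the B cell receptor TACI, had a log2 difference of 0.52 and Tnfrsf21, the gene of DR6, one of 0.43, and neither passed.

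Of 15 other ligands, 7 were measured, 4 lay below the filter and 4 had no probe set of their own. None passed (0 at an adjusted p of 0.05, 1 at an unadjusted p under 0.05). With the replicate block 1 passed (14.3%, against 6.27% of all probe sets tested). The median log2 difference was 0.44, against 0.0147 over all. That median is the value of Tnfsf14, which entered the test through its san/san signal, with means of 26.6 in san/san and 17.9 in +/+. Tnfsf9 entered through its +/+ signal, with a san/san mean of 19.4. Tnf, whose product binds both TNF receptors, had a signal of 99.0 and 79.8 on the san/san arrays and 60.7 and 46.8 on the +/+ arrays. Its genotypes did not overlap, and its log2 difference of 0.68 passed only with the replicate block (limma adjusted p = 0.348, 0.0379 with the block). Lta, the gene of lymphotoxin alpha, a ligand of the same receptors, had 56.4 and 44.8 on the san/san arrays and 59.9 and 62.1 on the +/+ arrays (log2 difference -0.25). Tnfsf11, which encodes RANK ligand, had a log2 difference of 0.93 by its brighter probe set and did not pass (limma adjusted p = 0.506), although both san/san arrays, at 45.4 and 28.0, were above the +/+ arrays, at 17.9 and 14.2. It too entered the test through its san/san signal, with a +/+ mean of 16.0. The partners of the members, named after their values were seen, were dim: Tnfsf9, the ligand of 4-1BB, had 22.4 and 16.4 on the san/san arrays and 23.0 and 23.5 on the +/+ arrays, and Tnfsf4, the ligand of OX40, 51.4 and 18.4 on the san/san arrays and 23.5 and 19.4 on the +/+ arrays.

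Downstream of the receptors, none of 15 measured genes for TRAF adaptors, kinases and ubiquitin enzymes passed (0 at an adjusted p of 0.05, 1 at an unadjusted p under 0.05, and 0 with the replicate block), and their median log2 difference was -0.00361. Rbck1, a subunit of the linear ubiquitin ligase, had the largest difference among those whose genotypes did not overlap, 0.49, followed by -0.31 for Tank, a TRAF-binding protein, and 0.27 for Traf5, an adaptor of CD27 and OX40. Of 8 measured caspase and death inhibitor genes none passed (0 at an adjusted p of 0.05 and 0 at an unadjusted p under 0.05, and 0 with the replicate block), with a median of 0.206; the differences were 0.31 for the caspase inhibitor gene Xiap, 0.24 for the necroptosis kinase gene Ripk3 and -0.23 for Casp6. Of 12 measured genes for NF-kB subunits and their inhibitors, 1 fell, and the median was -0.0546. It was Tnfaip3, the gene of the deubiquitinase A20 that shuts off TNF receptor signalling, with 68.3 and 93.6 on the san/san arrays, against 736.1 and 818.4 on the +/+ arrays (log2 difference -3.18, limma adjusted p = 1.68e-05). Bcl3, an atypical member of the inhibitor family, had a log2 difference of 0.77 (limma adjusted p = 0.381, 0.0288 with the replicate block; 0.0129 without +/+ array 1), and Rel one of -0.50.

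**Figure D4:**
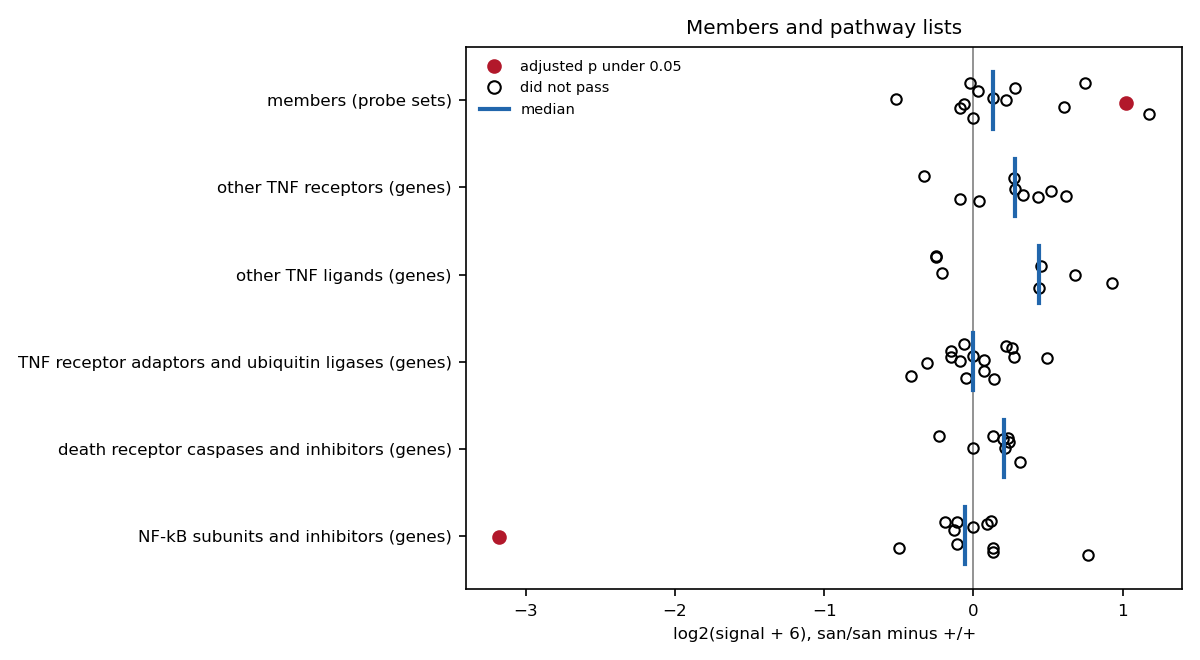
Difference of log2(signal + 6), san/san minus +/+, for the 13 member probe sets tested and for the genes of 5 pathway lists; filled red points had a limma adjusted p under 0.05, open points did not, and blue bars are medians. Tnfrsf1b 1418099_at (1.02) among the members and Tnfaip3 (-3.18) among the NF-kB genes were the points that passed.

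Marker genes of CD4 T cell subsets and of other cells differed between the same arrays. Over all probe sets tested, 1.06% were called, and 6.27% with the replicate block. Of 8 measured regulatory T cell markers 2 rose, Nrp1, a semaphorin receptor (log2 difference 1.21), and Izumo1r, the folate receptor 4 gene (1.00), and 6 passed with the replicate block. All 8 were above +/+ on both san/san arrays, as were 21.0% of all probe sets tested. Among the 8, Ikzf4 entered the test through its san/san signal, with means of 28.8 in san/san and 18.0 in +/+. The summed signal of the 8 markers was 1699.5 and 1783.2 on the san/san arrays, against 954.2 and 841.2 on the +/+ arrays. Foxp3, named after its values were seen, had a log2 difference of 0.64 and did not pass (limma adjusted p = 0.468, 0.0971 with the block). Of 7 follicular helper markers 4 rose (5 with the block): Pdcd1, the gene of PD-1 (2.11), the costimulator gene Icos (1.87), the cytokine gene Il21 (1.82), which entered the test through its san/san signal, and the chemokine receptor gene Cxcr5 (1.24). Their sums were 1339.6 and 1201.0 in san/san and 538.1 and 504.8 in +/+. Of 7 macrophage or monocyte markers the lysozyme gene Lyz2 rose (1.61), and 3 passed with the block. Among the 3, Fcgr1 entered the test through its san/san signal, with a +/+ mean of 11.5. The sums were 2910.4 and 3030.3 in san/san and 1885.4 and 2067.8 in +/+. The brightest of the 7 markers, the cathepsin gene Ctss, did not pass (0.34). Of 7 neutrophil markers the granule protein gene Ngp (2.20) and the calprotectin genes S100a8 (1.28) and S100a9 (1.18) rose, and 6 passed with the block. Among the 6, Camp and Lcn2 entered the test through their san/san signal, with +/+ means of 10.8 and 8.4. The sums were 1340.2 and 1388.7 in san/san and 517.4 and 501.7 in +/+.

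No marker of CD8 T or NK cells (10), B cells (6), plasma cells (3), dendritic cells (1) or red cells and platelets (3) passed, at an unadjusted p under 0.05 for 2, 0, 1, 0 and 1 of them. With the replicate block 2 CD8 T or NK markers passed, Eomes (1.25) and Nkg7 (0.79), which were named after their values were seen, and 1 red cell marker, the heme synthesis gene Alas2 (0.63). Of the 10 CD8 T or NK markers, however, 6 had a negative log2 difference, and the median was -0.0541. The sums of both lists were higher on both san/san arrays. For CD8 T or NK cells they were 699.3 and 757.8 in san/san and 693.2 and 628.8 in +/+. For red cells and platelets they were 1015.5 and 1094.0 in san/san and 723.7 and 726.3 in +/+. Most of the latter came from Alas2, with 905.2 and 1027.4 in san/san and 604.4 and 637.4 in +/+. The platelet genes Pf4 and Itga2b of that list had log2 differences of -0.23 and -0.26. The sums of the B cell markers overlapped, at 1158.0 and 1195.1 in san/san and 1142.3 and 1219.5 in +/+, as did those of the plasma cell markers (1018.3 and 916.8 in san/san, 915.2 and 1045.7 in +/+) and the 1 dendritic cell marker, Itgax (48.4 and 45.7 in san/san, 49.8 and 26.0 in +/+). The brightest genes of the CD8 T or NK, B cell and plasma cell lists had log2 differences of -0.08 (Gzma), -0.16 (Ms4a1) and 0.26 (Xbp1). No measured marker was at 0 on any array. Tnfrsf1b is expressed by regulatory T cells and by myeloid cells, and Tnfrsf9 by regulatory and activated T cells; the part of these cells in the values of both genes was not tested.

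**Figure D5:**
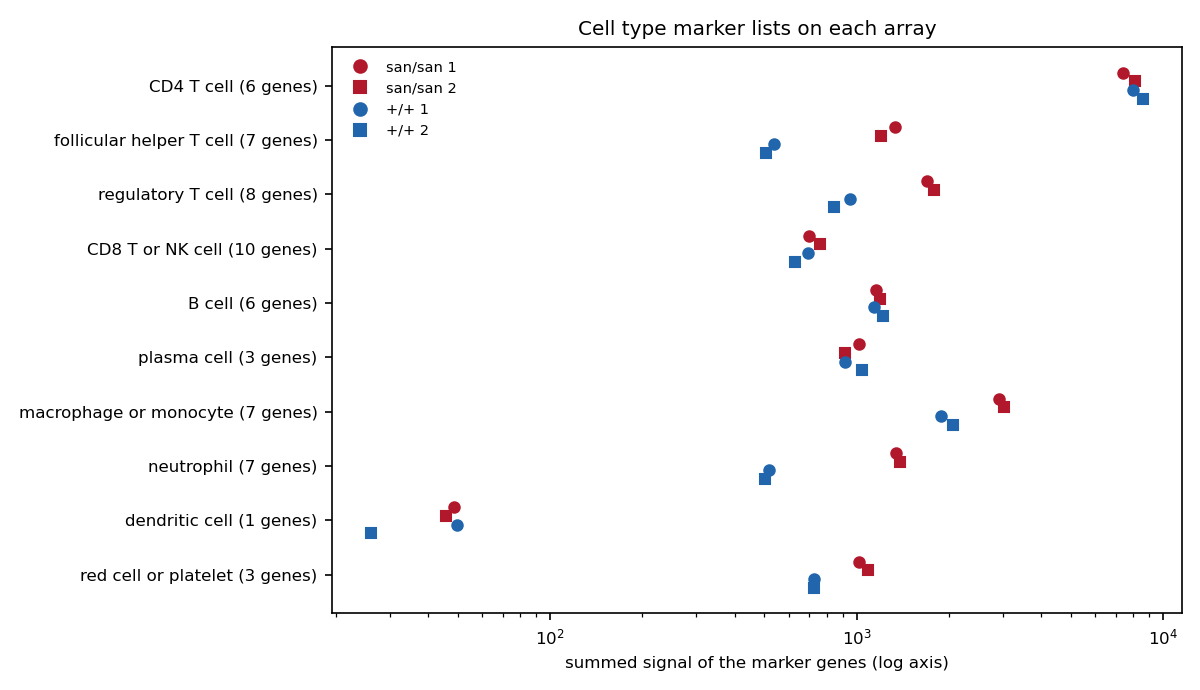
Summed signal of the measured marker genes of 10 cell types (log axis) on the san/san arrays (red, upper) and the +/+ arrays (blue, lower), with circles for number 1 and squares for number 2 arrays. Regulatory T cell, follicular helper, macrophage or monocyte, neutrophil, CD8 T or NK cell and red cell or platelet sums were higher on both san/san arrays, while those of CD4 T, B, plasma and dendritic cells overlapped. The margin was small between the number 1 arrays for CD8 T or NK cells, and the red cell or platelet sum was mostly the signal of Alas2.

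The pattern of Tnfrsf9 1428034_a_at over the 4 arrays, taken because its log2 difference was the largest of those tested although it entered through its san/san signal, was set beside 12411 other named probe sets by the Euclidean distance of their log2 values, each centred on its mean. The nearest were those of Eef1akmt1 (distance 0.031), Socs3 (0.054), Rnf149 (0.090), Ssbp2 (0.107) and Alox5ap (0.137). The Socs3 probe set, for example, had 220.5 and 223.8 on the san/san arrays and 107.6 and 80.1 on the +/+ arrays. The distances describe these 4 arrays only. Probe sets near a reference chosen for its large difference are higher in san/san by construction, so their likeness is a description and no test.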

How the data were processed

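Sample titles gave genotype and array number. The table the authors deposited holds 1 linear intensity per probe set and array for 22690 probe sets; the chip type is MOE430A per the file headers. How probes were summarised and background removed is not stated in the sources at hand. Trimmed means lay between 99.59 and 99.97 on all 4 arrays as deposited, and no further scaling was applied. Medians were less alike, at 40.4 and 32.3 on san/san arrays 1 and 2 and 36.7 and 30.8 on +/+ arrays 1 and 2. They were thus higher on the number 1 arrays, and higher in san/san within each pair. Their part in the differences of dim probe sets was not tested. Arrays with the same number were hybridised and scanned on 1 day, per the file headers, so the numbers pair them; the correlation of their deviations from the means was 0.392 (2 pairs).

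Left out were 64 control probe sets and all with a mean below the 40th percentile (21.3). The pseudocount 6 is the rounded 20th percentile; fold changes on this scale understate changes of dim probe sets. Limma 3.58.1 (lmFit and eBayes with a variance trend, R 4.3.3) was used without covariates, and tested on simulated data. Symbols came from the platform annotation, updated by gene identifier through RefSeq; 20393 probe sets had 1 symbol. The members, the 5 pathway lists and the 10 marker lists were chosen with earlier results of these data known. Named were all member probe sets; per pathway list, genes past the test and the 3 largest differences without overlap; per marker list, genes past the test and the brightest gene; and the 5 probe sets nearest in pattern. Alternatives were quantile normalization, median centring, pseudocounts of 1 and 24, no filter or a stricter one (60th percentile), a fit without the variance trend, the replicate block, leaving out each array and, for lists, averaging the probe sets of a gene. Figures were drawn with matplotlib 3.10.9.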

Additional observations from a re-analysis of the deposited data

How the results depend on the processing

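Over the 13 fits the count of called probe sets was 144 as reported, 56 without the filter, 47 without the variance trend, 852 with the replicate block and 105 to 356 with 1 array left out. The count of called member probe sets was 1 as reported, 0 under quantile normalization, with median centring, without the filter and without the variance trend, 4 with the replicate block, and 0 to 2 with 1 array left out; the fits without 1 array assume that the lone array varies like the others. The 2 without +/+ array 1 were Tnfrsf1b 1418099_at and Tnfrsf9 1460469_at. Pathway genes called with the replicate block were 1 other receptor, 1 other ligand and 2 NF-kB genes, and without 1 array 1 to 2 NF-kB genes. Marker genes called with the replicate block were 5 follicular helper, 6 regulatory T cell, 3 macrophage, 6 neutrophil, 2 CD8 T or NK and 1 red cell gene, against 4, 2, 1, 3, 0 and 0 without it. Among those called with the block, Il21, Fcgr1, Camp and Lcn2 entered the test through their san/san signal. An alternative chosen after seeing the data, leaving out the 2 members with a genotype mean below the filter level, also gave 1 called member probe set.

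The sign turned only for differences near 0 or overlapping genotypes. Fasl 1449235_at was -0.00123 under quantile normalization and -0.0894 with median centring, and Fasl 1418803_a_at -0.0587 with median centring. With 1 array left out the ranges were -0.208 to 0.21 and -0.326 to 0.39 for these, -0.0526 to 0.011 for Tnfrsf18, -0.288 to 0.114 for Tnfrsf1a, -0.219 to 0.102 for Cd27, -0.343 to 0.60 for Fas and -1.21 to 0.164 for Cd40lg. The causes were not tested. Dim probe sets, such as that of Cd40lg, allow only wide intervals.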
